A study of Mus musculus with 5 samples.

Results

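The mRNAs of 10 glutathione and antioxidant enzymes, Mgst1, Mgst2, Mgst3, Gstm1, Gsta4, Gstp1, Gclc, Gclm, Nqo1 and Hmox1, were followed through ribonucleoprotein immunoprecipitates (RNP-IPs) and total RNA of mouse NIH/3T3 cells. NIH/3T3 is an established mouse embryonic fibroblast line. The cells of the RNP-IPs carried pBSwitch together with pSLHGC-MYC-AUF1 p42. From these retroviral constructs myc-tagged AUF1 p42 is expressed under a mifepristone-inducible promoter, and after infection the cells had been selected with mifepristone present. AUF1, the product of Hnrnpd, is a protein that binds AU-rich elements of mRNAs. RNP-IPs were taken with anti-c-myc agarose beads from 2 extracts of cells labelled as induced (1 nM mifepristone for 24 h) and from 2 extracts labelled as uninduced. A further array held total RNA. All RNP-IPs come from 1 cell line with both vectors integrated. The sources used here do not say whether the cells for total RNA carried the vectors or were induced.

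Of 18194 genes with a probe set of their own, these 10 were taken by name, with all of their 17 probe sets. The set was chosen by the signals of Mgst1, which was seen in total RNA but hardly in any RNP-IP. The levels of Mgst1 in RNP-IPs and total RNA are therefore a description without a test, and for all members the differences from total RNA are given in the same way.

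Glutathione is a small thiol made in the cytosol, where glutamate-cysteine ligase, of the catalytic subunit Gclc and the modifier subunit Gclm, performs the rate-limiting step. Glutathione transferases join it to electrophiles: the cytosolic ones include the mu class (Gstm1), the alpha class (Gsta4) and the pi class (Gstp1), whereas Mgst1, Mgst2 and Mgst3 belong to the membrane-bound MAPEG family. Nqo1 reduces quinones and Hmox1 opens the heme ring. Transcription of many of these genes is raised by NRF2, a factor held down by KEAP1, through antioxidant response elements in their promoters and enhancers.

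Signals were log2 values from Affymetrix GeneChip Mouse 430 2.0 arrays normalized by RMA, which gives each array the same overall distribution. A signal is therefore relative to the other mRNAs of that array, and fewer cells or precipitates and less RNA per cell cannot be told apart. Values of all 45101 probe sets ran from 2.32 to 14.86 with array medians of 3.77 to 3.83, and a signal under log2 5, where 69.7% to 70.8% of the probe sets of an array lay, was regarded as near background. In 55.1% of probe sets at least 2 arrays had the identical deposited value, so that an SD of 0 between arrays is not a measure of their true spread. The signals of Hnrnpd, the gene of the tagged protein, were lower with the induced label than with the uninduced label. They were log2 6.72 and 7.39 with the induced label, 11.35 and 11.85 with the uninduced label and 10.60 in total RNA. These are levels of mRNA and not of the AUF1 protein. Where the probe sets of Hnrnpd lie relative to the vector's AUF1 sequence is not stated in the methods or labels, and the RNP-IPs are called by their labels throughout. All 9 fibroblast markers were at log2 5 or more in every array, and of 14 markers of epithelial, blood, endothelial, neural and liver cells 13 were under 5 in every array. The exception was the epithelial marker Epcam at 6.66 to 6.99. RNP-IP 2 labelled induced and RNP-IP 1 labelled uninduced had low signals at the 5' end of Actb, with 11.35 and 7.17 in RNP-IPs 1 and 2 with the induced label, 5.83 and 9.66 with the uninduced label and 8.50 in total RNA. The same pairs of arrays were low at the 3' end of Gapdh, with 11.90 and 9.71 with the induced label, 9.70 and 12.11 with the uninduced label and 12.32 in total RNA, and in Rplp0, with 13.21 and 11.88 with the induced label, 11.50 and 13.55 with the uninduced label and 13.33 in total RNA. The labels do not say that the RNP-IPs of a group came from separate cultures, so p-values measure the spread between these arrays, which may be technical.

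The promoters of the members were searched for the core of the antioxidant response element, TGACNNNGC, on both strands, since this element is what the pathway is known for. RefSeq promoter windows (GRCm38.p6, 250 bases before to 50 after a start) were found for 7 of the 10 members, in 9 windows. Gsta4, Gclc and Hmox1 had none. Mgst1 and Gclm each had 1 match, and the other 7 windows had none. Both matches lie on the strand opposite to the gene, and are shown on the gene's strand with the core in capitals.
Mgst1, chr6:138140461-138140489, plus strand: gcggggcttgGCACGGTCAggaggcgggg
Gclm, chr3:122245413-122245441, plus strand: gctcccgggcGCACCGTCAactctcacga
In all, 12.4% of 32851 promoter windows held such a match, and a match is a description of letters and not of a bound site.

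Of the MAPEG enzymes, Mgst1, a glutathione transferase of the endoplasmic reticulum and mitochondrial outer membrane, was near background in all 4 RNP-IPs but not in total RNA. Its brighter probe set (1415897_a_at) had log2 signals of 3.54 and 4.24 with the induced label, 3.07 and 2.79 with the uninduced label and 7.46 in total RNA. All 4 RNP-IPs were near background and none overlapped with total RNA. On the log2 scale the mean difference from total RNA was -3.57 with the induced label and -4.53 with the uninduced label. Since the RNP-IPs were near background, total RNA was at least 5.49-fold higher, which is the fold against log2 5. The second probe set of Mgst1 (1415898_at) was at 2.82 to 3.07 in all 5 arrays and showed no signal in total RNA either.

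Between the groups of RNP-IPs the log2 difference of Mgst1 was 0.96, between signals near background, and it is given without a test. The genes most like Mgst1 over the 5 arrays, by the distance between centred log2 values among 18193 genes, were Tmem176b, Fosl1, Ereg, Tmem176a and Tfrc. Their distances were 1.00, 1.23, 1.24, 1.49 and 1.52 log2 units. They were picked as the smallest, so that lying under the median of 3.80 over all these genes was fixed by the choice. The distances use the same signals by which Mgst1 was chosen and are a description. Fosl1 is a subunit of AP-1, Ereg encodes the growth factor epiregulin, Tfrc the transferrin receptor, and Tmem176a and Tmem176b are related membrane proteins. Tmem176b had signals of 5.91 and 5.91 with the induced label, 5.91 and 5.72 with the uninduced label and 9.84 in total RNA. Tfrc, the brightest of them in the RNP-IPs, was at 7.61 in both RNP-IPs with the induced label, 7.23 and 7.27 with the uninduced label and 10.03 in total RNA. All 3 probe sets of Tmem176a were higher in total RNA than in any RNP-IP, whereas the second probe set of Fosl1 and the other 5 of Tfrc were under 5 in every array.

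Mgst2, a MAPEG enzyme with glutathione transferase and leukotriene C4 synthase activity, was present in every array. Its only probe set had signals of 7.66 and 9.06 with the induced label, 8.81 and 7.78 with the uninduced label and 9.31 in total RNA. The groups of RNP-IPs overlapped and their difference did not pass the test (log2 0.07, SE 0.73, adjusted p = 0.993 from limma). The pairs of RNP-IPs that were alike were those across the groups, RNP-IP 1 labelled induced with RNP-IP 2 labelled uninduced, and RNP-IP 2 labelled induced with RNP-IP 1 labelled uninduced. This order is the reverse of that at the 5' end of Actb given above, and its part in the values of Mgst2 was not tested. The reverse order was found in 8 of the 17 member probe sets and 27.8% of all probe sets, the same order in 4 and 17.8%. The other related MAPEG enzyme, Mgst3, was even across the arrays, at 6.59 and 6.71 with the induced label, 6.59 and 6.55 with the uninduced label and 6.56 in total RNA. Its range of 0.17 on the log2 scale was the smallest among the brightest probe sets of the 10 genes. Its second probe set was near background in every array (3.29 to 3.55).

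**Figure D1:**
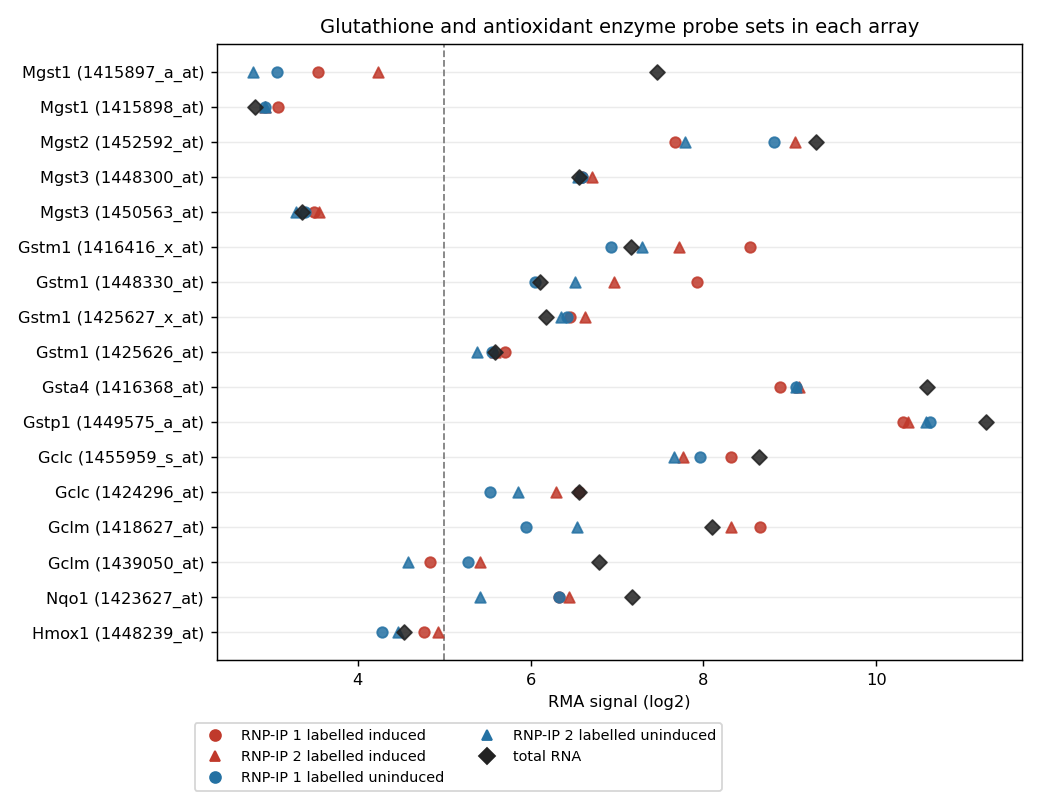
Log2 RMA signal (horizontal axis) of the 17 probe sets of the 10 genes, 1 probe set per line and each marker 1 array; the dashed line is log2 5, under which signals were regarded as near background. Mgst1 (1415897_a_at) is at 7.46 in total RNA and at 2.79 to 4.24 in the RNP-IPs, and Gclm (1418627_at) is at 8.65 and 8.32 with the induced label and at 5.95 and 6.53 with the uninduced label.

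Among the cytosolic transferases Gstm1 was highest in the RNP-IPs labelled induced on its 2 brightest probe sets, without passing the test, whereas Gsta4 and Gstp1 were lower in all RNP-IPs than in total RNA. Gstm1, a conjugating enzyme of the mu class, has 4 probe sets, of which 1416416_x_at was the brightest, with 8.54 and 7.71 with the induced label, 6.93 and 7.29 with the uninduced label and 7.16 in total RNA. Probe set 1448330_at ran alike, with 7.93 and 6.96 with the induced label, 6.05 and 6.51 with the uninduced label and 6.11 in total RNA. In both, the arrays labelled induced lay above the 3 others, RNP-IP 1 being the highest. The differences between the groups of RNP-IPs were 1.01 (SE 0.38, adjusted p = 0.522 from limma) and 1.16 (SE 0.45, adjusted p = 0.535) on the log2 scale, neither of which passed the test. Both probe sets follow the order of the 5' end of Actb within the groups, a point whose part in the values was not tested. The other 2 probe sets of Gstm1 had log2 differences of 0.16 and 0.18. Mu class genes are close in sequence, and probe sets ending in _x_at can hold probes that match other genes, so that the assignment of these signals to Gstm1 alone is uncertain.

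Gsta4, which handles the lipid peroxidation product 4-hydroxynonenal, had signals of 8.88 and 9.10 with the induced label, 9.08 in both RNP-IPs with the uninduced label and 10.59 in total RNA. The RNP-IPs were alike and none came near total RNA. Total RNA was 3.03-fold above the mean with the induced label and 2.85-fold above that with the uninduced label. The difference between the groups of RNP-IPs was -0.08 (SE 0.10, adjusted p = 0.755 from limma). Gstp1, the pi class enzyme, was at 10.31 and 10.37 with the induced label, 10.62 and 10.57 with the uninduced label and 11.27 in total RNA. It was the only member with both arrays labelled induced under both labelled uninduced, by a log2 difference of -0.26 (SE 0.05), with an unadjusted p under 0.05 and an adjusted p = 0.286 from limma, at a fold far from the limit of 3.

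Gclm, the modifier subunit of glutamate-cysteine ligase, was higher in the RNP-IPs labelled induced than in those labelled uninduced, and it was the only member called in that comparison. Its brighter probe set (1418627_at) had signals of 8.65 and 8.32 with the induced label, 5.95 and 6.53 with the uninduced label and 8.10 in total RNA. The means were 8.49 ± 0.23 with the induced label and 6.24 ± 0.41 with the uninduced label (SD, n = 2 each). The groups did not overlap, and total RNA lay just below the RNP-IPs labelled induced. The fold was 4.75 (log2 2.25, SE 0.28, adjusted p = 0.19 from limma). Against total RNA the RNP-IPs labelled induced were 0.39 higher and those labelled uninduced 1.86 lower on the log2 scale. The second probe set of Gclm (1439050_at) did not show this difference, with 4.84 and 5.41 with the induced label, 5.28 and 4.58 with the uninduced label and 6.79 in total RNA (log2 0.20, SE 0.38, adjusted p = 0.844 from limma). On it the groups of RNP-IPs overlapped, all 4 were below total RNA, and 1 array of each group was near background. The call of the brighter probe set ended with the replicate numbers as a block (adjusted p = 0.511) and with values under log2 5 set to 5 (adjusted p = 0.728), at the same log2 fold, within a range of 0.0575 to 0.728 over 10 alternatives. None of its values was under 5, so that floor changed its adjusted p through the other probe sets alone. The call held whichever of the 4 RNP-IPs was left out (log2 1.95 to 2.54). Within the groups this probe set followed the order of the 5' end of Actb and the second probe set the reverse, and the part of this in their values was not tested.

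Gclc, the catalytic subunit, differed less between the groups. Its brighter probe set (1455959_s_at) was at 8.32 and 7.76 with the induced label, 7.96 and 7.66 with the uninduced label and 8.64 in total RNA, and the groups of RNP-IPs overlapped (log2 0.23, SE 0.27, adjusted p = 0.744 from limma). The other probe set (1424296_at) was at 6.56 and 6.29 with the induced label, 5.53 and 5.85 with the uninduced label and 6.56 in total RNA. Here the groups did not overlap, at a fold of 1.67 (log2 0.74, SE 0.18, adjusted p = 0.348 from limma), which is under the fold of 3 that a call needs. On both probe sets of Gclc, total RNA was closer to the mean with the induced label than to that with the uninduced label. The same held on the brightest probe sets of Mgst1, Mgst2, Gclm and Nqo1, and not on those of Mgst3, Gstm1, Gsta4, Gstp1 and Hmox1.

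Nqo1, the quinone reductase, was at 6.32 and 6.44 with the induced label, 6.32 and 5.41 with the uninduced label and 7.17 in total RNA. All RNP-IPs were below total RNA, RNP-IP 2 labelled uninduced being the lowest. The difference between the groups of RNP-IPs did not pass the test (log2 0.52, SE 0.39, adjusted p = 0.721 from limma). Hmox1, the inducible heme oxygenase, was near background in every array. It had 4.76 and 4.93 with the induced label, 4.28 and 4.47 with the uninduced label and 4.54 in total RNA. Although the groups did not overlap, the difference was 0.47 (SE 0.11, adjusted p = 0.34 from limma) between signals that are not well above background.

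Set together, 15 of the 17 member probe sets had a higher mean with the induced label than with the uninduced label, and 2 had a lower one. The 17 are of 10 genes, 4 of them of Gstm1, and are not independent. In every array 3 were near background, and those of Mgst1 were so in all RNP-IPs. Differences as small as log2 0.07 are counted as higher. Of all 45101 probe sets 50.3% were higher. A call needed a fold of 3 or more with an adjusted p (Benjamini-Hochberg) under 0.5, which is a lenient threshold. By limma's fit with 3 groups, 1 member probe set, of Gclm, was called higher and none lower, whereas of all probe sets 1.23% were called higher and 1.91% lower. No member had an adjusted p under 0.05 from limma, and no other probe set had one either, the smallest adjusted p being 0.118. An unadjusted p under 0.05 was found for 4 member probe sets, namely Gclm (1418627_at), Gclc (1424296_at), Gstp1 and Hmox1, beside 11.5% of all probe sets. The median log2 fold was 0.20 over the 17 member probe sets and 0.0004 over all probe sets. Both arrays labelled induced lay above both labelled uninduced in 9 member probe sets, 2 of them near background in every array and 1 of them, of Mgst1, near background in the RNP-IPs, and in 15.5% of all probe sets. Of these 9, 4 belong to the 1 gene Gstm1. The opposite order was seen in 1 member probe set, of Gstp1, and in 15.8% of all probe sets.

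The RNP-IPs labelled induced were also compared with all 3 other arrays as controls. By limma no member was called there, whereas 2.82% of all probe sets were. At an unadjusted p under 0.05 there were 4 member probe sets, 2 of Gstm1 and 1 each of Hmox1 and Mgst3, the last 2 near background, and 10.7% of all probe sets. Gclm had a fold of 3.09 here (log2 1.63, SE 0.73, adjusted p = 0.599), with total RNA at 8.10. The probe sets of Gstm1 reached log2 fold changes of 1.00 (SE 0.30, adjusted p = 0.372) and 1.22 (SE 0.35, adjusted p = 0.359), under the fold of 3. For Mgst1 the mean log2 difference was -0.55, which includes the total RNA array and is given without a test.

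**Figure D2:**
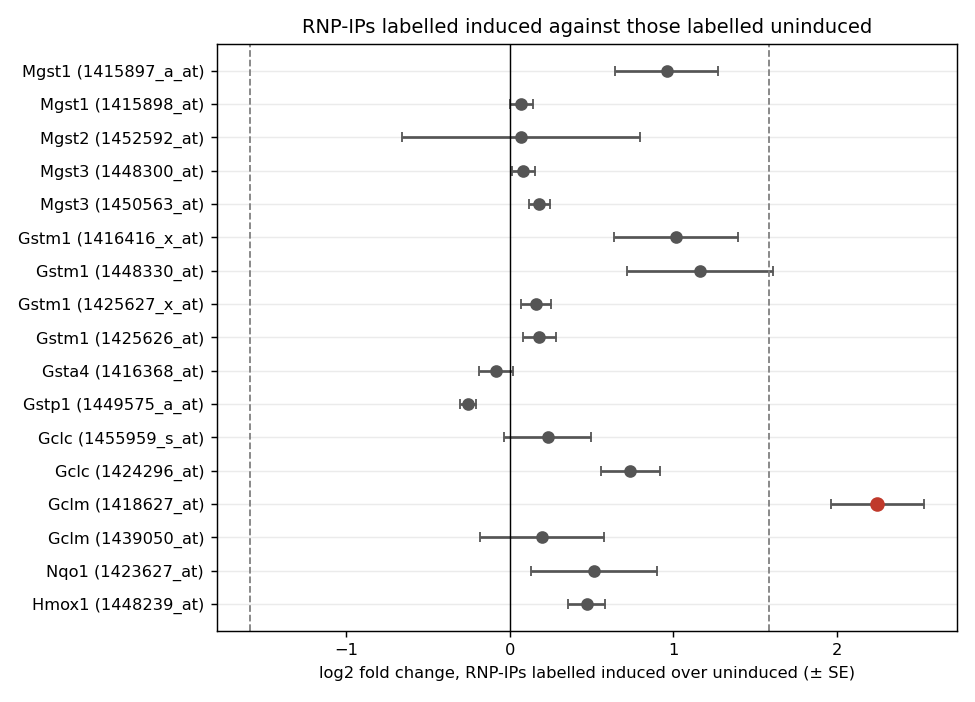
Log2 fold change of the RNP-IPs labelled induced over those labelled uninduced (horizontal axis, points) with its SE from limma (bars) for the 17 probe sets; dashed lines mark a fold of 3 and the red point the called probe set. Gclm (1418627_at) stands at 2.25, and the others lie between -0.26 and 1.16. The values of Mgst1 are a description without a test.

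On the brightest probe set of each gene, both RNP-IPs labelled induced were below total RNA in 6 of the 10 genes and in 32.2% of all genes, and both labelled uninduced in 8 of the 10 and in 30.6% of all genes. Of the 17 member probe sets, 7 had both RNP-IPs labelled induced below total RNA and 11 had both labelled uninduced below it, beside 27.6% and 26.4% of all probe sets, or 46% and 40.7% of those with a mean signal of at least log2 6. All 4 RNP-IPs were below total RNA in 7 member probe sets, and in 17.9% of all probe sets or 28.6% of those with a mean of at least log2 6. The choice of Mgst1 used this contrast, so nothing is read from these counts. The median difference from total RNA over the 10 genes was -0.69 on the log2 scale with the induced label and -0.92 with the uninduced label, while it was 0 over all genes in both. A fold of at least 3 below total RNA in both arrays of a group was seen for Mgst1 alone, in both groups, where 2.39% of all probe sets reached it with the induced label and 0.701% with the uninduced label. Gsta4, Gclm and Nqo1 were further from total RNA than the other members beside Mgst1 in the RNP-IPs labelled uninduced, by -1.51, -1.86 and -1.30. No member was 3-fold above total RNA in both arrays of either group, a fold reached by 1.2% of all probe sets with the induced label and 0.703% with the uninduced label.

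**Figure D3:**
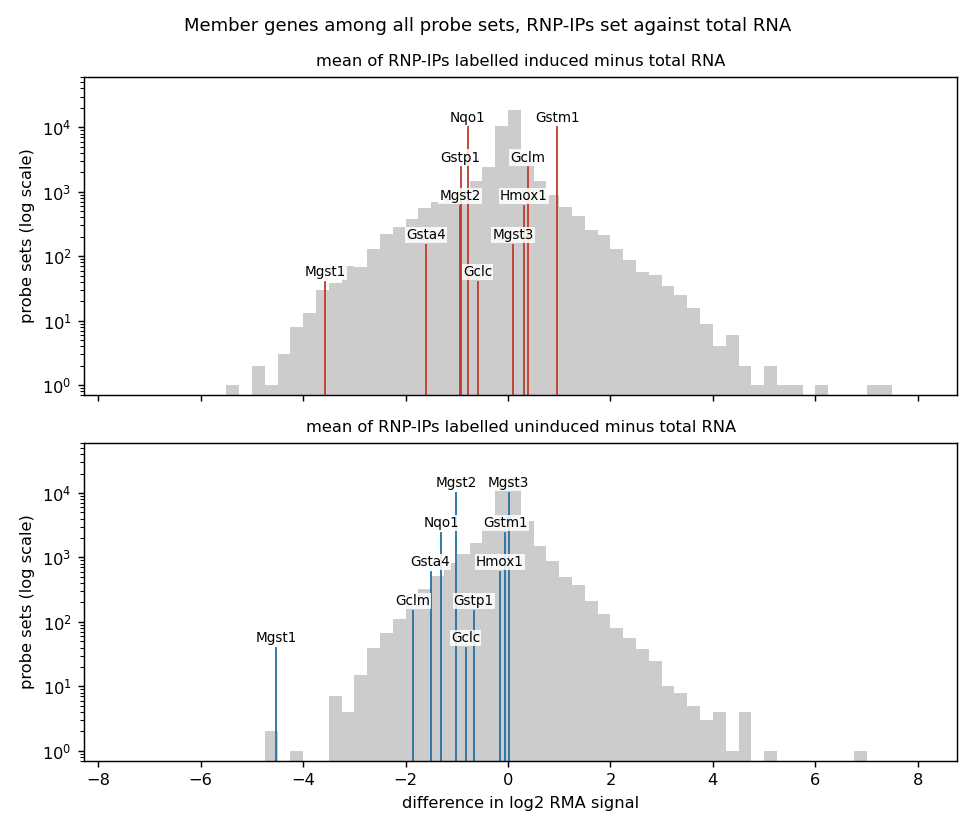
Number of probe sets (vertical axis, log scale) by the difference in log2 signal between the mean of the RNP-IPs and total RNA (horizontal axis), above for the RNP-IPs labelled induced and below for those labelled uninduced; coloured lines mark the brightest probe set of each of the 10 genes, and their heights serve the labels alone. Mgst1 stands at -3.57 and -4.53, and the other 9 genes lie between -1.60 and 0.96 above and between -1.86 and 0.01 below.

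The wider pathway was taken as 9 lists of 115 genes, of which 104 were measured by a probe set of their own. Against the 3 controls, 3 were called higher with the induced label, 2 were called lower and 99 were not called. Thus 4.81% were called, beside 3.68% of all 18194 genes, of which 1.32% were higher and 2.36% lower. Their median log2 fold was 0.06, against 0.002 over all genes. The higher ones were the redox enzymes Srxn1 and Txnrd1 and the MAPEG protein Alox5ap, and the lower ones Chac1 and Cth.

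Srxn1, sulfiredoxin, which restores overoxidized peroxiredoxins, had signals of 7.35 and 8.0 with the induced label, 4.42 and 4.37 with the uninduced label and 5.76 in total RNA. The RNP-IPs labelled uninduced were near background, and the log2 fold over the 3 controls was 2.82 (SE 0.56, adjusted p = 0.227 from limma). Its other 3 probe sets had log2 folds of -0.04, -0.04 and 0.23. Txnrd1, the cytosolic thioredoxin reductase, was at 10.13 and 10.16 with the induced label, 7.85 and 8.81 with the uninduced label and 8.61 in total RNA, a fold of 3.30 (log2 1.72, SE 0.33, adjusted p = 0.22). Its other 2 probe sets, at 3.20 to 5.38, did not pass the test. As in Gclm, the brightest probe sets of Srxn1 and Txnrd1 were also called in the comparison of the RNP-IPs alone (log2 3.28, adjusted p = 0.15, and log2 1.82, adjusted p = 0.318 from limma). Of the 104 genes of the lists, 2 were called higher and 2 lower there, beside 1.38% and 2.65% of all genes. The lower ones were Chac1 (log2 -2.22, adjusted p = 0.163 from limma) and Bach1. The call of Txnrd1 there ended without RNP-IP 1 or 2 labelled induced (log2 1.83 and 1.80) and without RNP-IP 1 labelled uninduced (1.34). With values under log2 5 set to 5, neither was called there (adjusted p = 0.679 for Srxn1 and 1 for Txnrd1 from limma), and with the replicate block Txnrd1 was not called (adjusted p = 0.55). No value of this probe set of Txnrd1 was under 5, so the floor acted on it through the other probe sets alone. Srxn1 and Txnrd1 were the only called genes among 17 of the thioredoxin, glutaredoxin and methionine sulfoxide reductase list. The call of Srxn1 over the 3 controls ended without RNP-IP 2 labelled uninduced (log2 2.58) and that of Txnrd1 without RNP-IP 1 labelled uninduced (1.43).

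Alox5ap, the 5-lipoxygenase activating protein and a relative of the Mgst enzymes, was at 8.31 and 7.86 with the induced label, 6.84 and 6.16 with the uninduced label and 5.32 in total RNA. Its log2 fold over the 3 controls was 1.98 (SE 0.52, adjusted p = 0.311 from limma), and over the RNP-IPs labelled uninduced it was 1.58, which was not called. The other MAPEG relatives, Ltc4s and Ptges, were under 5 in every array. Chac1, an enzyme that degrades glutathione, was at 5.43 and 5.93 with the induced label, 7.84 and 7.97 with the uninduced label and 8.47 in total RNA (log2 -2.41, SE 0.27, adjusted p = 0.116). Cth, cystathionine gamma-lyase, which supplies cysteine, was at 8.14 and 7.29 with the induced label, 9.03 and 9.44 with the uninduced label and 9.58 in total RNA (log2 -1.64, SE 0.33, adjusted p = 0.237). In both genes the arrays labelled induced were below the 3 controls. For Alox5ap the call ended when RNP-IP 1 labelled induced (log2 1.75) or RNP-IP 2 labelled uninduced (2.0) was left out, and for Cth when RNP-IP 2 labelled induced (-1.21) or RNP-IP 2 labelled uninduced (-1.59) was left out. The call of Cth also ended with cyclic loess (log2 -1.55), and those of Cth and Alox5ap ended without total RNA, with or without the replicate block (-1.52 for Cth and 1.58 for Alox5ap). Chac1 stayed called over the 3 controls whichever RNP-IP was left out.

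On the brightest probe set of each gene, none was called over the 3 controls among 18 other glutathione transferases, 12 peroxidases, peroxiredoxins, catalase and superoxide dismutases, 12 quinone, carbonyl and xenobiotic reductases, 5 genes of heme degradation and ferritin, 6 of NADPH supply and 15 of NRF2 regulation. Of the transferases, 11 were under 5 in every array. When each gene was represented by its probe set of largest fold instead, 7 genes of the 9 lists were called, the 5 above and 2 more. That choice uses the fold that a call tests, and no share over all genes is given for it. The count and the 2 further genes are therefore a description. Slc40a1, the iron exporter ferroportin, was higher on that probe set, with 6.52 and 6.84 with the induced label, 4.91 and 4.87 with the uninduced label and 4.41 in total RNA. Its log2 fold was 1.95 (SE 0.21), while its brightest probe set had 0.27. Cul3, the scaffold of the ubiquitin ligase through which KEAP1 acts on NRF2, was lower, with 6.34 and 6.35 with the induced label, 9.45 and 8.96 with the uninduced label and 8.44 in total RNA. Its log2 fold was -2.61 (SE 0.33), while its brightest probe set had 0.16. Nfe2l2, which encodes NRF2 and is named for its role, was at 9.58 and 9.22 with the induced label, 8.19 and 8.79 with the uninduced label and 9.02 in total RNA (log2 0.74, adjusted p = 0.55 from limma). Bach1, a heme-sensitive repressor of Hmox1, was at 9.59 and 9.08 with the induced label, 11.45 and 11.08 with the uninduced label and 8.87 in total RNA. It was called lower in the comparison of the RNP-IPs alone (log2 -1.93, SE 0.27, adjusted p = 0.206 from limma), as were 2.65% of all genes. With values under log2 5 set to 5 that call ended at the same fold (adjusted p = 0.766), although no value of this probe set was under 5. The second probe set of Bach1 was under 5 in every array.

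Against total RNA, 2 genes of these lists were at least 3-fold lower and 4 at least 3-fold higher in both RNP-IPs labelled uninduced, beside 1.05% lower and 1.02% higher of all genes. The lower ones were the alpha class transferase Gsta2, with 4.06 and 3.70 against 6.60 in total RNA, and Abcc1, an exporter of glutathione conjugates, with 6.86 and 7.03 against 9.12. Gsta2 had the pattern of Mgst1, with RNP-IPs near background, those labelled induced at 3.43 and 3.87. The higher ones were Bach1, the gamma-glutamylcyclotransferase Ggct (9.30 and 9.35 against 6.69 in total RNA), the carbonyl reductase Cbr4 (8.51 and 9.31 against 6.42) and the sestrin Sesn1 (10.68 and 10.32 against 8.65). Ggct, Cbr4 and Sesn1 also lay above total RNA with the induced label, at 8.32 to 10.32.

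**Figure D4:**
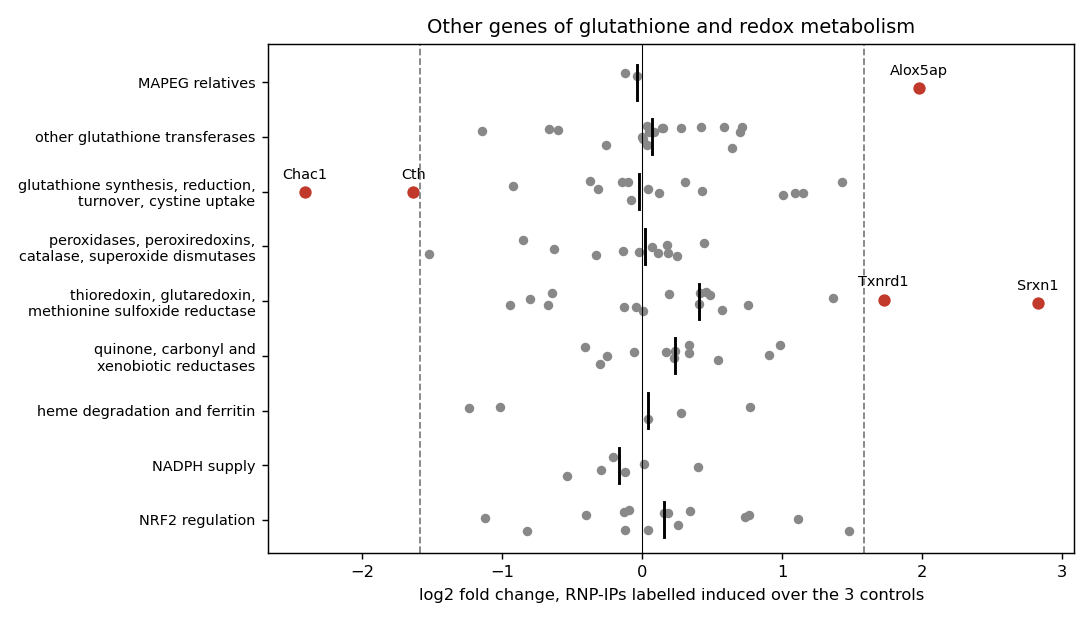
Log2 fold change of the RNP-IPs labelled induced over the 3 controls (horizontal axis) for 104 genes in 9 lists of glutathione and redox metabolism, each point 1 gene and each black bar the median of a list; dashed lines mark a fold of 3, and the height of a point within a list has no meaning. The 5 called genes, in red, are Srxn1 at 2.82, Alox5ap at 1.98, Txnrd1 at 1.72, Cth at -1.64 and Chac1 at -2.41.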

How the data were processed

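RNA of 2 RNP-IPs labelled induced, 2 labelled uninduced and 1 total RNA sample was amplified in 2 cycles by the authors, hybridized to mouse GeneChips and normalized by RMA (version not stated). The deposited log2 values of 45101 probe sets were used as given; the number of arrays limits the precision.

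Limma 3.58.1 in R 4.3.3 was fitted to every probe set, comparing both RNP-IPs labelled induced with the 3 controls, and in 3 groups for induced against uninduced, with Benjamini-Hochberg adjustment over all of them. The fits were tested on simulated data. A probe set was called at 3-fold or more with adjusted p under 0.5. Names came from the platform annotation, updated by Entrez identifier with the RefSeq table of GRCm38.p6 (34958 probe sets with 1 gene, 932 with several, 9211 with none). A gene of the lists was represented by its brightest probe set. Named were all members, called list genes (up to 4 per list), up to 3 genes per list 3-fold from total RNA in both RNP-IPs labelled uninduced, the 5 genes most like Mgst1, and Hnrnpd with reference genes. Nfe2l2 was added for its role. The members and lists were chosen with earlier results of these data known. Same-numbered RNP-IPs deviated oppositely (r = -0.50 across probe sets), and the numbers were not used as pairs. Alternatives were other scalings, a filter or floor on dim values, left-out arrays, blocks and thresholds.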

Additional observations from a re-analysis of the deposited data

How the results depend on the processing

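The number of member probe sets called between the groups of RNP-IPs (1, Gclm) was unchanged with median centring, cyclic loess and only probe sets of a mean of at least log2 6. It was 0 with values under log2 5 set to 5, 0 with the replicate block and 0 at an adjusted p under 0.05, and 1 to 2 without 1 RNP-IP, the second being Gstm1 (1448330_at, log2 1.65) without RNP-IP 2 labelled induced. Over the 3 controls (0 called) it was 1 with cyclic loess, 1 with the filter at log2 6, 1 with the floor at log2 5 and 1 without total RNA, each time Gclm (log2 1.63 to 2.25), and 0 to 1 without 1 RNP-IP. With that floor Hmox1, set to 5 in every array, had the same adjusted p as Gclm (0.327 from limma). The call of Gclm with the floor thus rested on its fold alone, and nothing is read from it. The labels do not say that the replicate numbers pair the RNP-IPs, and the crossed replicate block, chosen after seeing the data, gave 1 call in both comparisons. Of all probe sets, 654 were called between the groups of RNP-IPs with the replicate block and 1615 with the crossed one, against 1415 without a block. Of the pathway genes 5 were called. With the replicate block, for which total RNA was also left out, 3 were called, 2 of them (Chac1 and Srxn1) among the 5 and the other Bach1. At an adjusted p under 0.05 there were 0, without 1 RNP-IP 2 to 5, and with each gene on its probe set of largest fold 7. The member probe sets at least 3-fold below total RNA in both RNP-IPs (1 in each group) numbered 3 in those labelled induced and 4 in those labelled uninduced at 2-fold, each time of the 3 genes Mgst1, Gsta4 and Gclm, and 1 to 4 in those labelled induced and 2 to 3 in those labelled uninduced with 1 RNP-IP of the group left out. No member's call changed its direction under these alternatives. In both comparisons no probe set of the arrays was called at an adjusted p under 0.05, so nothing is read from the counts of 0 there. The probe set of largest fold was picked by the fold that a call tests, so nothing is read from the 7 either. The floor at log2 5 changed no value of Gclm (1418627_at), so it acted on that call through the other probe sets. The cause of the other changes was not tested. Signals under log2 5 set the limit of detection, so that folds of Mgst1 are bounds.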
